A study of Mus musculus with 15 samples.

Results

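The chemokine genes Cxcl14 and Cxcl12 and the receptor genes Cxcr4 and Ackr3 were followed in RNA of the mouse first branchial arch at the embryonic stage E10.5, when the arch consists of a maxillary branch (future upper jaw) and a mandibular branch (future lower jaw). The genes were taken by symbol and were chosen by the array signals themselves, because Cxcl14 was known to be lower in both mutants than in their controls. They are 4 of the 18194 genes with a symbol of their own on the array, and they are read by 7 probe sets, 2 for Cxcl14, 3 for Cxcl12 and 1 each for Cxcr4 and Ackr3. All 7 probe sets passed the filter on dim values. The values of the 4 genes in the comparisons of each mutant with the wild type of the same branch are therefore given as a description, without p values.

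The 15 arrays formed 5 groups of 3, which were the mandibular branch of Dlx5/6 mutants, the maxillary branch of embryos labelled KO, the wild-type (WT) mandibular branch, and a pair of WT maxillary groups labelled WT_MXA2 (set 2) and WT_MXA (set 1). The KO labels named no gene, and the description shared by all arrays listed dlx2, dlx1/2 and Dlx5/6 mutants. Strain, the alleles and the number of embryos behind an array were not given in the labels, which foresaw pooled arches, so the tests measured the spread between these arrays. The signal of Dlx5 was 10.9 ± 2.97 in Dlx5/6 mutant and 727 ± 40.5 in WT mandibular arrays, and that of Dlx2 was 3.36 ± 0.180 in KO and 422 ± 20.1 in set 2 maxillary arrays (SD, n = 3 each). Dlx1 was also lower in KO than in set 2 arrays (209 ± 11.7 and 711 ± 30.8), as was Dlx5 (33.5 ± 5.98 and 117 ± 24.6). A spike-in control, dap, split the arrays: KO and set 2 (6 arrays) had a signal of 3612 to 3774, the remaining 9 arrays one of 423 to 507, so the KO arrays share an array set with set 2, and both mandibular groups share one with set 1. Levels below are the deposited signals, a linear intensity scaled to the same trimmed mean on every array. Differences are on the log2(signal + 32) scale after quantile normalization, with the SE from limma, and adding 32 makes changes of dim probe sets look smaller than they are. A probe set was called at a Benjamini-Hochberg adjusted p under 0.05 over 31643 probe sets. Probe sets differ in brightness for reasons other than RNA amount, so no level of a gene is set against another gene's. In such bulk RNA, fewer cells of a type and less RNA per cell cannot be told apart.

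Chemokines are small secreted proteins that guide moving cells through receptors that span the membrane. CXCL12 binds the G protein-coupled receptor CXCR4, which steers neural crest, muscle precursor, endothelial and blood cells in vertebrate embryos. The same ligand binds ACKR3, an atypical receptor that signals through arrestin rather than G proteins and removes CXCL12 from its surroundings. CXCL14 is made by many epithelia and mesenchymes, and its own receptor is not settled. Dlx proteins are homeodomain transcription factors known for setting upper and lower identity in the arch.

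The stretches just before the starts that RefSeq's promoter windows use (GRCm38.p6) are shown to set the DNA of the 4 genes side by side. For Cxcl14 that start, and so the stretch, lies inside the annotated gene span. They are read 5′ to 3′ on the gene's strand, and the capitals mark TATAAA, the core of a TATA box, and GGGCGG on either strand (CCGCCC as written), the GC box bound by Sp1 family factors.
Cxcl14, chr13:56296552-56296581, minus strand: gcgtggctccgagtgtgcgccgctgggatc
Cxcl12, chr6:117168435-117168534, plus strand: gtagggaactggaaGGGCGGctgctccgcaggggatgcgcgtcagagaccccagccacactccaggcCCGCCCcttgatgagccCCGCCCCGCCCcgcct
Cxcr4, chr1:128592300-128592399, minus strand: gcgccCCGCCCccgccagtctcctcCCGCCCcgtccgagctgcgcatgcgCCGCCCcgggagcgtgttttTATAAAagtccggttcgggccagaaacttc
Ackr3, chr1:90203880-90203979, plus strand: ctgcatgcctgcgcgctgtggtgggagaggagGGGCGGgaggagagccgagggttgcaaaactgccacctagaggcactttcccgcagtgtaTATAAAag

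Both receptor genes had TATAAA on the gene strand in the last 100 bases before the start, beginning 30 bases before it in Cxcr4 and 8 bases before it in Ackr3, and neither ligand gene had it. Over all 32851 promoter windows of that table, 3.80% held TATAAA in this stretch. In the 250 bases before the start, GGGCGG was found 5 times in Cxcl12, 3 times in Cxcr4, 1 time in Ackr3 and 0 times in Cxcl14, counting overlapping matches on both strands, and 32.7% of all windows held at least 1. TAATT, a core that homeodomain proteins can bind, was searched in the same 250 bases on both strands and was found in none of the 4 genes, against 25.0% of all windows. Such a match or its lack describes these letters in this window only. For Cxcl14 only 30 bases are shown, because its annotated gene span begins 260 bases further up than the start used here, so its counts, unlike those of the other 3 genes, were made within the annotated gene.

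**Figure D1:**
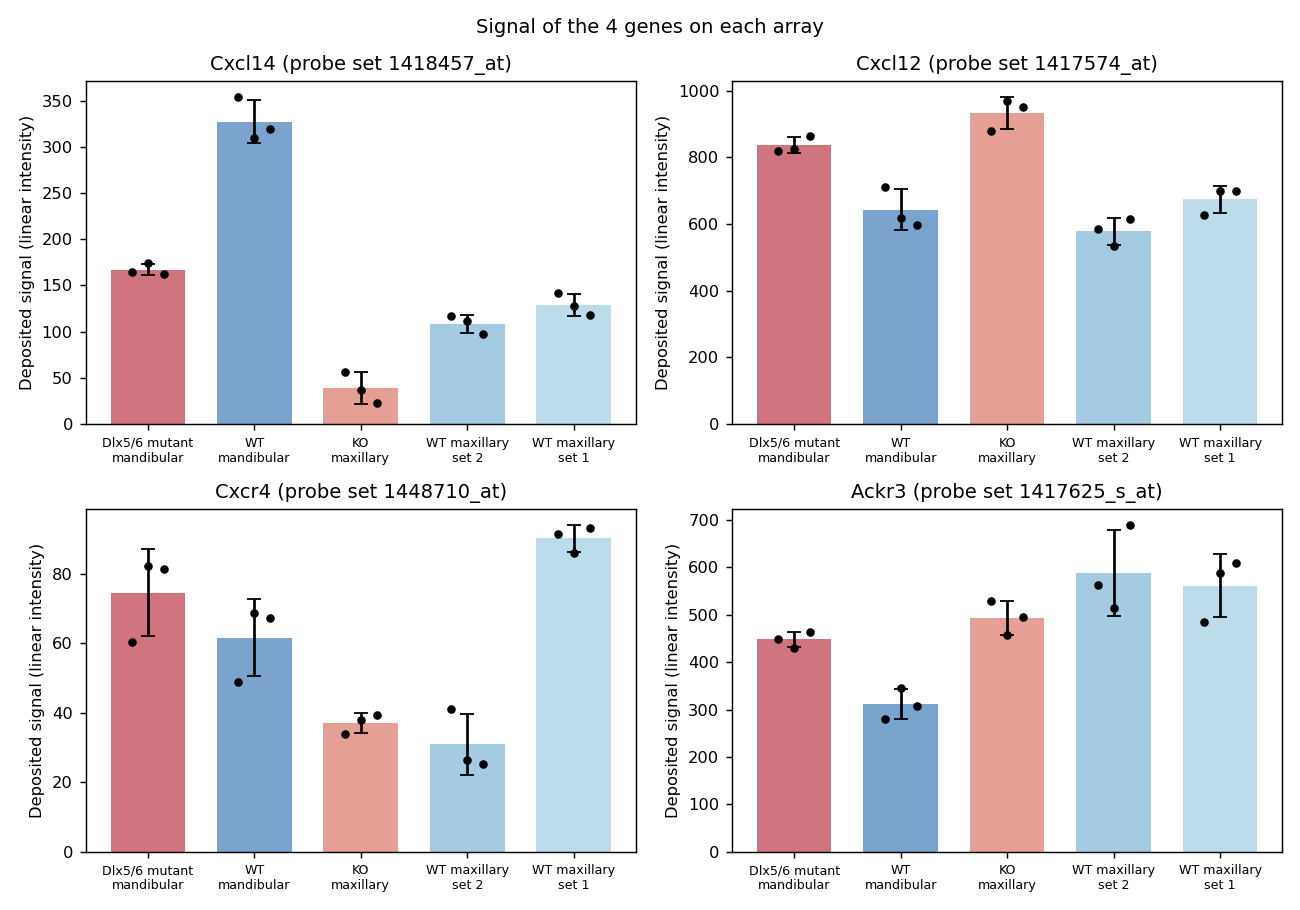
Deposited signal (linear intensity, y axis) of the brightest specific probe set of each gene by group (x axis); points are arrays, bars the mean of 3 and error bars the SD. Cxcl14 is highest in WT mandibular arrays at 327 and lowest in KO maxillary arrays at 38.7, whereas Cxcl12 is highest in the KO and Dlx5/6 mutant groups at 932 and 836.

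Cxcl14 was the ligand whose level followed the branch. On probe set 1418457_at its signal was 164, 174 and 163 in the Dlx5/6 mutant mandibular arrays, against 354, 309.5 and 319 in the WT mandibular arrays. All 3 mutant arrays lay below every WT array. The difference was -0.83 ± 0.14 on the log2 scale, and the mean signal in the mutant was 0.510 times that in WT. The other probe set, 1418456_a_at, read 88.2, 86.9 and 112 in the mutant and 195, 186 and 181 in WT mandibular arrays, a difference of -0.76 ± 0.12 and a ratio of 0.511. Both probe sets of Cxcl14 thus gave a closely similar ratio.

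In the upper jaw branch Cxcl14 was lower in the KO group. Probe set 1418457_at read 56.7, 37.3 and 22.3 in KO maxillary arrays, against 117, 111 and 97.5 in set 2. The highest KO array lay well below the lowest set 2 array, and the difference was -1.09 ± 0.14, a signal ratio of 0.357. The KO arrays spread more on this probe set than any other group did relative to its mean (38.7 ± 17.2 in KO and 108 ± 9.89 in set 2, SD). Probe set 1418456_a_at read 42.4, 39.5 and 39.2 in KO and 60.6, 46.3 and 52.6 in set 2 arrays. These groups did not overlap either, but the difference was smaller, -0.29 ± 0.12 (interval from -0.56 to -0.02). Set across array sets against set 1, the differences in KO were -1.26 ± 0.14 and -0.73 ± 0.12. The sizes of the KO difference on the 2 probe sets, 0.357 and 0.758 as signal ratios against set 2, were thus much further apart than those of the Dlx5/6 difference. Array medians of the deposited signal ran from 26.6 to 33.4, so the KO levels of Cxcl14 were close to the middle of all probe sets.

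**Figure D2:**
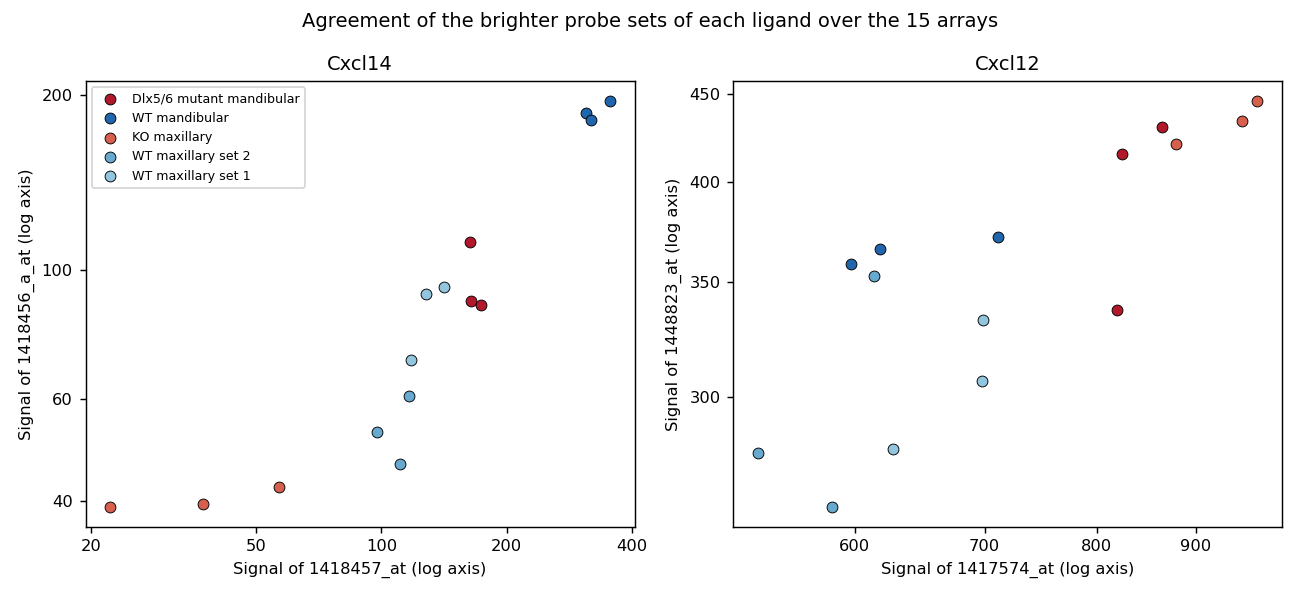
Signal of one probe set against another of the same gene on each of 15 arrays, both axes logarithmic, coloured by group. For Cxcl14 the WT mandibular arrays stand apart at the top right and the KO arrays at the bottom left, where 1418456_a_at stays between 39.2 and 42.4 while 1418457_at spans 22.3 to 56.7; for Cxcl12 the KO arrays and 2 of 3 Dlx5/6 mutant arrays are highest on both probe sets.

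The rule that chose the genes did not use the comparison of the WT branches, although its WT mandibular arrays also serve as controls of the Dlx5/6 mutant. Cxcl14 was higher in the WT mandibular than in the WT maxillary branch. On 1418457_at the signal was 354, 309.5 and 319 in WT mandibular arrays and 141, 128.2 and 118 in set 1. Every mandibular array was far above the highest maxillary array, and the ratio of the mean signals was 2.53. The difference was 1.15 ± 0.14 (limma adjusted p = 4.6e-06), and on 1418456_a_at it was 0.91 ± 0.12 (adjusted p = 3.7e-05). Of the 7 probe sets 3 were called in this comparison, both of Cxcl14 higher and that of Ackr3 lower, beside a share of 2.64% over all probe sets (1.13% higher and 1.51% lower). On 5 of the 7 the groups did not overlap, as on 17.6% of all probe sets.

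In the Dlx5/6 mutant the mandibular level of Cxcl14 lay between those of the WT mandibular and the WT maxillary branch. On 1418457_at the mutant mean was 167 ± 5.98 and that of set 1 was 129 ± 11.8 (SD, n = 3 each). The same mutant arrays were among those that chose the gene. They lay above those of set 1, but the difference of 0.32 ± 0.14 was not called (adjusted p = 0.49), with a 95% confidence interval from 0.02 to 0.63. On 1418456_a_at the groups overlapped and the difference was 0.15 ± 0.12 (adjusted p = 0.81, interval from -0.12 to 0.43). None of the 7 probe sets was called between the mutant mandibular branch and set 1, where limma called 0.594% of all probe sets. At an unadjusted p under 0.05 the number was 4 of 7, beside 8.59% of all probe sets, and on 5 of 7 the groups did not overlap, as on 14.8% of all probe sets. Against set 2 the Cxcl14 difference was 0.49 ± 0.14, given as a description because both groups served to choose the gene, and there branch, genotype and array set cannot be told apart. The order of the Cxcl14 levels on 1418457_at was WT mandibular, Dlx5/6 mutant mandibular, set 1, set 2 and KO maxillary, with no overlap between neighbours. On 1418456_a_at the order was the same, and only the mutant mandibular arrays and set 1 overlapped. The WT maxillary sets, of the same tissue and genotype label, thus stood apart on both probe sets. Their means were 129 and 108 on 1418457_at, and 84.8 and 53.2 on 1418456_a_at, where the KO mean was 40.3.

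**Figure D3:**
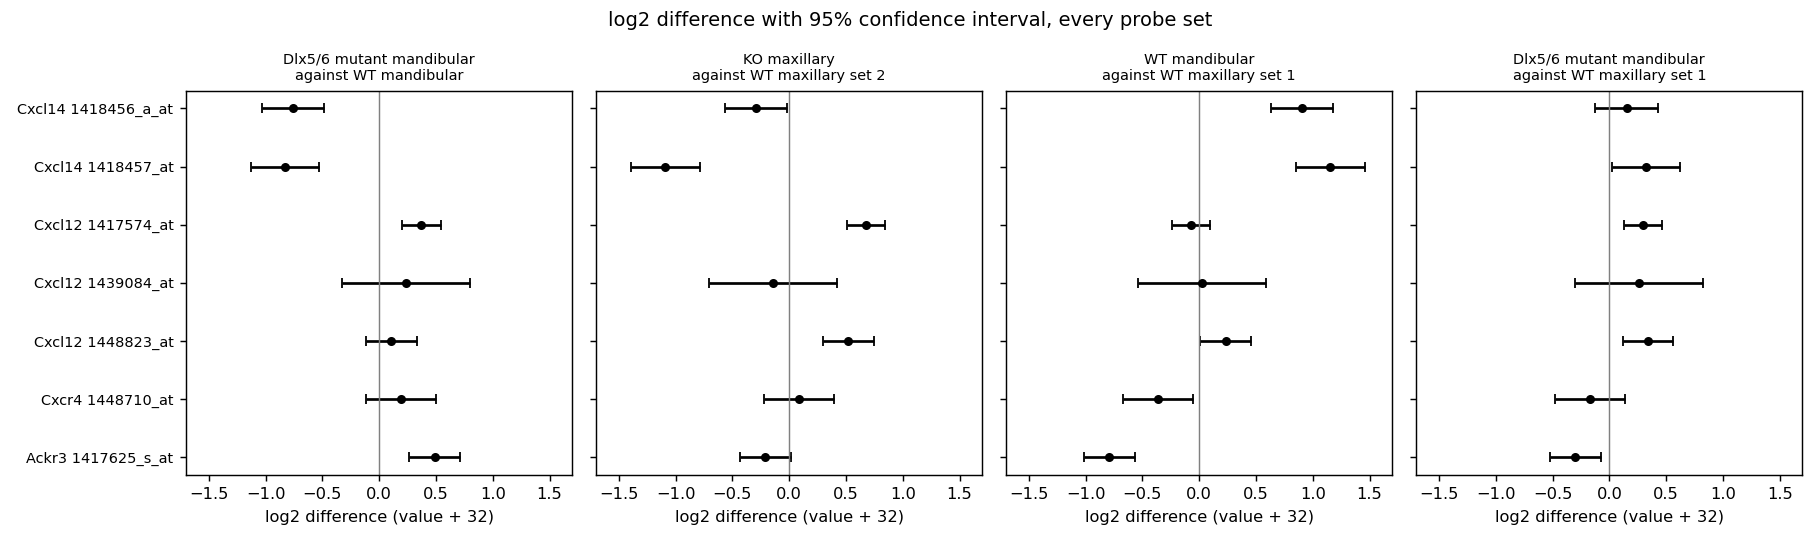
log2 difference (x axis, on signal + 32) of each of the 7 probe sets in 4 comparisons over 15 arrays. Lines are 95% confidence intervals from the SE of limma and a t distribution with 10 residual degrees of freedom. Cxcl14 lies left of 0 in both mutants and right of 0 for the WT mandibular against the WT maxillary branch; Ackr3 lies right of 0 in the Dlx5/6 mutant and left of 0 for the WT mandibular branch.

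Cxcl12, the ligand of both receptors, was higher where Cxcl14 was lower in the KO group. On its brightest probe set, 1417574_at, the signal was 879, 968 and 950.2 in KO maxillary arrays, against 584, 535 and 614 in set 2. The groups lay far apart, and the difference was 0.67 ± 0.08, a signal ratio of 1.61. Probe set 1448823_at gave 421, 446 and 434 in KO and 259, 278 and 353 in set 2 arrays, a difference of 0.52 ± 0.10 without overlap. Against set 1 the differences were 0.47 ± 0.08 and 0.50 ± 0.10.

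In the Dlx5/6 mutant the probe sets of Cxcl12 did not give the same picture. On 1417574_at the signal was 819.6, 825 and 864 in the mutant and 712, 618 and 597 in WT mandibular arrays. Here the mutant arrays were all above the WT arrays, by 0.37 ± 0.08. On 1448823_at it was 337, 416 and 431 in the mutant and 372, 366 and 358 in WT mandibular arrays. Mutant replicate 1 was the lowest of these 6 arrays, the groups overlapped, and the difference was 0.11 ± 0.10. The third probe set, 1439084_at, had a signal of at most 33.8 on any array and group means from 7.85 to 18.0, and all its groups overlapped their neighbours. Over the 15 arrays the log2 levels of the 2 brighter probe sets had a Pearson correlation of 0.820, given as a description because arrays of a group share their tissue and array set. For the 2 probe sets of Cxcl14 it was 0.934.

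Between the WT branches no probe set of Cxcl12 was called. On 1417574_at the mean was 642 ± 60.9 in WT mandibular and 675 ± 40.5 in set 1 arrays (SD, n = 3 each), a difference of -0.07 ± 0.08 (adjusted p = 0.79) with an interval from -0.24 to 0.09. On 1448823_at the WT mandibular arrays were above set 1 (365 ± 6.56 and 306 ± 26.4), but the difference of 0.23 ± 0.10 missed the threshold (adjusted p = 0.33). The Dlx5/6 mutant mandibular branch stood above set 1 by 0.30 ± 0.08 on 1417574_at, without overlap and without a call (adjusted p = 0.092, interval from 0.13 to 0.47). Against set 2 the mutant was higher by 0.50 ± 0.08, given as a description because branch, genotype and array set cannot be told apart there. In the order of levels on this probe set the KO and then the Dlx5/6 mutant group came first and did not overlap each other, and the 3 WT groups that followed overlapped their neighbours.

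Ackr3, the atypical receptor that takes up CXCL12, followed the branch in the direction opposite to Cxcl14. Its probe set 1417625_s_at, of a kind that may read more than 1 transcript, gave 281, 345 and 308.5 in WT mandibular arrays and 486, 588 and 609.9 in set 1. No mandibular array reached the maxillary range, and Ackr3 was lower in the mandibular branch by -0.79 ± 0.10 (adjusted p = 1.4e-05). With set 2 as the maxillary group it was -0.86 ± 0.10, across array sets and given as a description.

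In the Dlx5/6 mutant mandibular arrays Ackr3 read 449, 431 and 464, against 281, 345 and 308.5 in WT mandibular arrays. The mutant arrays were all higher, by 0.49 ± 0.10, a signal ratio of 1.44. They still lay below all set 1 arrays, but the difference of -0.30 ± 0.10 from set 1 was not called (adjusted p = 0.29, interval from -0.52 to -0.08). Against set 2 it was -0.37 ± 0.10, given as a description because branch, genotype and array set cannot be told apart there. In the KO maxillary arrays Ackr3 read 529, 458 and 496, against 562, 514 and 689 in set 2. These groups overlapped, and the difference was -0.21 ± 0.10, with an interval from -0.44 to 0.01. Ackr3 levels ran from set 2 and set 1 over KO maxillary and Dlx5/6 mutant mandibular to WT mandibular arrays, and only the step between the mutant and WT mandibular arrays was free of overlap.

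Cxcr4, the signalling receptor, was dim, with group means from 30.9 to 90.2. Its signal was 60.3, 82.2 and 81.3 in Dlx5/6 mutant and 48.9, 68.6 and 67.3 in WT mandibular arrays. The groups overlapped, and the difference was 0.20 ± 0.14 (interval from -0.11 to 0.50). In the KO maxillary arrays it was 33.8, 38.0 and 39.4, against 41.1, 26.4 and 25.1 in set 2. These overlapped too, with a difference of 0.09 ± 0.14 (interval from -0.22 to 0.40). The WT mandibular arrays lay below set 1, where Cxcr4 read 91.4, 85.9 and 93.3, by -0.37 ± 0.14, which was not called (adjusted p = 0.23). The Dlx5/6 mutant mandibular arrays were also below set 1 without a call (-0.17 ± 0.14, adjusted p = 0.81).

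Cxcr4 differed between the WT maxillary sets. Set 1 and set 2 carry the same label of tissue and genotype, yet the mean was 90.2 ± 3.82 in set 1 and 30.9 ± 8.88 in set 2 (SD, n = 3 each). With set 2 as the maxillary group, Cxcr4 was higher in the WT mandibular branch (0.60 ± 0.14) and in the Dlx5/6 mutant branch (0.79 ± 0.14). These differences cross array sets and are a description, and the direction turned with the choice of set. The KO arrays stood 0.87 ± 0.14 below set 1 on the log2 scale (difference -0.87), and at the level of set 2. No direction between the branches is given for Cxcr4.

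Counted over the 7 probe sets, 4 were called in the Dlx5/6 mutant, both of Cxcl14 lower and 1 of Cxcl12 and that of Ackr3 higher, beside a share of 2.66% over all probe sets (1.41% higher and 1.25% lower). In the KO group 3 were called against set 2, 1 of Cxcl14 lower and 2 of Cxcl12 higher, beside a share of 0.913% over all (0.465% higher and 0.449% lower). Because these comparisons served to choose the genes, nothing is read from these counts.

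Other chemokine genes gave no further calls. Among other CXC, CX3C and XC ligands 7 of 15 listed genes passed the filter, among CC ligands 8 of 18 and among other chemokine receptors 11 of 21. Of these 0 were called by limma in any of the 4 comparisons. At an unadjusted p under 0.05 the 3 lists together held 2 in the Dlx5/6 mutant, 4 in the KO group, 3 between the WT branches and 0 between the mutant mandibular branch and set 1, of 26 tested. Over all genes the share at that threshold was 14.4% in the Dlx5/6 mutant, 11.6% in the KO group, 13.8% between the WT branches and 8.93% between the mutant mandibular branch and set 1. Among all 13934 genes tested, the share called was 3.16% in the Dlx5/6 mutant, 1.26% in the KO group against set 2, 3.56% between the WT branches and 0.782% between the mutant mandibular branch and set 1. Median differences of the other receptors were 0.08 in the Dlx5/6 mutant and 0.18 in the KO group, beside -0.01 and -0.00 for all genes. The summed signal of the 19 other receptors with a probe set was between 281 and 301 in Dlx5/6 mutant and between 159 and 229 in WT mandibular arrays, and between 395 and 410.1 in KO and between 264 and 345 in set 2 maxillary arrays. The groups of this sum did not overlap in either mutant. Most of these receptors were dim. Of the 19, a group mean below 30 was found for 17 in Dlx5/6 mutant, 17 in WT mandibular, 15 in KO and 16 in set 2 arrays, and only 11 of these receptors passed the filter. Cx3cr1, a receptor gene of macrophages that is also in the macrophage list below, was the brightest of them in KO arrays and is named after its values were seen. It had a signal of 65.4 in KO and 38.7 in set 2 arrays, and of 54.3 in Dlx5/6 mutant and 32.5 in WT mandibular arrays, and was not called. Pf4, which encodes platelet factor 4, is named after its values were seen, as the brightest of the CXC, CX3C and XC list. Its signal was 210.4 in Dlx5/6 mutant and 193 in WT mandibular arrays (difference 0.13 ± 0.12, adjusted p = 0.74), and 254 in KO and 229 in set 2 maxillary arrays (0.13 ± 0.12, adjusted p = 0.78).

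Of 21 listed genes for the signalling and turnover of both receptors (G protein subunits, arrestins, receptor kinases and others) 19 were tested. Limma made 0 calls in 3 of the comparisons. There an unadjusted p under 0.05 was found for 3 of 19 genes in the Dlx5/6 mutant, 2 in the KO group and 3 between the WT branches. Over all genes the shares at that threshold were 14.4%, 11.6% and 13.8%. In the mutant mandibular branch against set 1, Rac1, which encodes a GTPase of cell movement, was higher (0.24 ± 0.05, limma adjusted p = 0.044). It was the only one of the 19 called there, beside a share of 0.782% over all genes. The median difference of this list lay between -0.03 and 0.08 in all 4 comparisons.

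The genes whose log2 level was most like that of Cxcl14 over the 15 arrays were Stk26, a kinase gene (Pearson r = 0.957), Rps6ka6 (0.942) and Tlk2 (0.928), also kinase genes, Tsc22d1 (0.938) and the nuclear receptor gene Nr5a2 (0.924). They were taken from 2197 genes with group means that ranged over at least 0.5. Stk26 had a mean signal of 1941 in Dlx5/6 mutant and 2321 in WT mandibular arrays, and of 631 in KO and 1342 in set 2 maxillary arrays. Nr5a2 had 38.0 and 89.1 in Dlx5/6 mutant and WT mandibular arrays, and 12.8 and 27.0 in KO and set 2 arrays. Within groups, after the group means were taken out, the correlation with Cxcl14 was 0.157 for Stk26 and 0.545 for Nr5a2. It was 0.313 for Rps6ka6, 0.503 for Tlk2 and -0.408 for Tsc22d1. The likeness of Stk26 thus lay mostly in the group means, and that of Tsc22d1 did not hold within groups.

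For Cxcl12 the most alike were the collagen gene Col3a1 (r = 0.927), the matrix protein gene Tgfbi (0.893) and the kinase gene Camk2d (0.883). Col3a1 read 4568 in Dlx5/6 mutant and 3866 in WT mandibular arrays, and 5078 in KO and 3514 in set 2 arrays. For Ackr3 they were the noncoding transcript Crnde (0.940) and the Iroquois homeobox genes Irx5 (0.936) and Irx3 (0.932). Irx5 read 284 in Dlx5/6 mutant and 122 in WT mandibular arrays, and 284 in KO and 340.0 in set 2 arrays. For Cxcr4 they were Ywhae (0.943), Hyls1 (0.940) and Vps72 (0.938), and all 3 had the lowest 2 group means in KO and set 2 arrays, which form 1 array set. Within groups the correlation with Cxcl12 was 0.51 for Col3a1, 0.179 for Tgfbi and 0.0046 for Camk2d. With Ackr3 it was 0.652 for Crnde, 0.788 for Irx5 and 0.155 for Irx3. With Cxcr4 it was 0.58 for Ywhae, 0.62 for Hyls1 and 0.547 for Vps72. These correlations are descriptions over arrays that share tissue and array set.

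Markers of the cell types in the arch were set beside these values. Over all genes the share called was 3.16% in the Dlx5/6 mutant, 1.26% in the KO group and 3.56% between the WT branches. These shares belong beside the marker calls counted in this and the following paragraphs. Some markers were dim. In WT mandibular arrays a group mean below 30 was found for 4 of 10 macrophage and 5 of 9 sensory neuron markers. In KO arrays it was found for 1 marker of each of these lists. The summed signal of 10 epithelial markers, a cell type known to make CXCL14, was between 2806 and 2867 in Dlx5/6 mutant and between 2792 and 2886 in WT mandibular arrays, and 0 of 10 were called. In the KO group it was between 2771 and 2851, against 2472 to 2569 in set 2, again with 0 of 10 called. Between the WT branches it was between 2792 and 2886 in mandibular arrays and between 2518 and 2651 in set 1, without overlap and with 0 of 10 called, and there the branch with more Cxcl14 had the higher sum. The part of epithelium in the values of Cxcl14 was not tested.

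The summed signal of macrophage markers lay above its control in both mutants. Over 10 genes it was between 545 and 608 in Dlx5/6 mutant and between 369 and 386 in WT mandibular arrays, with 1 called higher and 0 lower. In the KO group it was between 758 and 856, against 539.6 to 560.2 in set 2, with 2 called higher and 0 lower. The called gene shared by both was Csf1r, the macrophage growth factor receptor gene (0.59 in each comparison). Endothelial markers summed to between 1633 and 1888 in KO arrays, against 1267 to 1415 in set 2, with 1 of 10 called higher. In the Dlx5/6 mutant they summed to between 1284 and 1546, against 1220 to 1378 in WT mandibular arrays, with 1 of 10 called higher. The sums of 9 arch mesenchyme markers were between 9912 and 10548 in Dlx5/6 mutant and between 8173 and 8756 in WT mandibular arrays, with 3 called higher and 1 lower, and between 9146 and 9539 in KO and between 9414 and 9905 in set 2 arrays, with 2 called higher and 3 lower.

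Between the WT branches the mesenchyme, macrophage and endothelial sums were lower where Ackr3 was lower. In the Dlx5/6 mutant the mesenchyme and macrophage sums lay above WT mandibular arrays and Ackr3 was higher by 0.49 ± 0.10, while the endothelial sums overlapped. In the KO group the macrophage and endothelial sums lay above set 2, but the Ackr3 difference was -0.21 ± 0.10, and the mesenchyme sums overlapped. The mesenchyme sum was between 8173 and 8756 in WT mandibular and between 10495 and 11063 in set 1 arrays, with 1 called higher and 5 lower. The macrophage sum was between 369 and 386 in WT mandibular and between 537 and 564 in set 1 arrays, with 1 called lower. The endothelial sum was between 1220 and 1378 in WT mandibular and between 1429 and 1635 in set 1 arrays, with 1 called lower. The part of these cells in the values of the 4 genes was not tested.

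Muscle progenitor markers, 5 genes, summed to between 188 and 214 in Dlx5/6 mutant and between 319 and 331 in WT mandibular arrays, with 1 called lower, Myf5. In the KO group they lay on the other side of the control, between 249 and 279, against 153 to 205 in set 2, with 1 called higher, Lhx2. Between the WT branches they were between 319 and 331 in mandibular arrays and between 143 and 195 in set 1, with 2 called higher.

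Sensory neuron markers, 9 genes of which 8 were tested, summed to between 522 and 611 in Dlx5/6 mutant and between 502 and 552 in WT mandibular arrays, with 1 called higher, Neurod1. In the KO group they summed to between 903 and 923, against 1075 to 1097 in set 2, with 2 called lower, the neurofilament genes Nefl and Nefm. Between the WT branches all 8 tested were called lower in the mandibular branch, and set 1 summed to between 2583 and 2661. Set 1 had the highest neuronal sum and the highest Cxcr4 mean. KO and set 2 maxillary arrays summed higher than both mandibular groups. The Cxcr4 means were 37.1 in KO and 30.9 in set 2, against 74.6 in Dlx5/6 mutant and 61.6 in WT mandibular arrays. These groups also differ in branch and array set, and a link between the neuronal sum and Cxcr4 was not tested. Glial markers (4 genes) summed to between 355 and 371 in KO and between 399 and 511 in set 2 arrays, with 0 called, and to between 201 and 246 in Dlx5/6 mutant and between 172 and 228 in WT mandibular arrays, with 0 called. In set 1 they summed to between 604 and 765, and 3 of 4 were called lower in the WT mandibular branch. Erythroid markers (7 genes) summed to between 25884 and 29480 in Dlx5/6 mutant and between 23733 and 24689 in WT mandibular arrays, and to between 27776 and 28744 in KO and between 24854 and 27652 in set 2 arrays, with 0 called in either. The part of these cells in the levels of the 4 genes was not tested either.

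**Figure D4:**
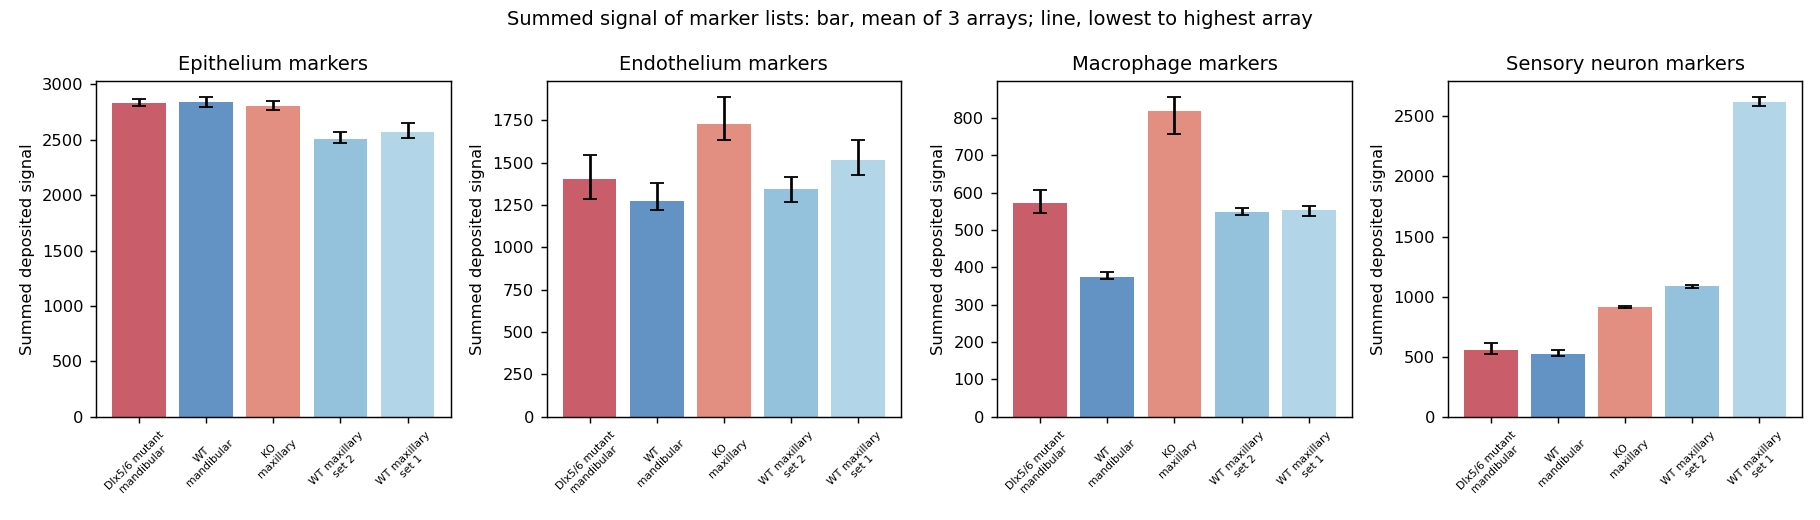
Summed deposited signal (y axis) of 4 marker lists by group (x axis); bars are means of 3 arrays and lines run from the lowest to the highest array. Epithelial sums lie between 2472 and 2886 on all arrays, macrophage sums are highest in the KO group, and sensory neuron sums are highest in set 1.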

How the data were processed

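RNA of 15 samples was measured on Affymetrix mouse arrays. The authors deposited 1 linear intensity per probe set; the software and summary method are not given in the sources used here. On every array the trimmed mean (2% at each end) was 150.0, so the deposited values were already scaled. All columns were mapped by sample.

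The values were converted to log2(value + 32). Array medians differed by 0.159, above the limit of 0.1, so the arrays were quantile normalized. The array held 45101 probe sets, 64 of them controls, and the filter left 31643, each exceeding the 40th percentile on 3 or more arrays. Symbols came from the platform table (34958 probe sets with 1 symbol, 932 with several, 9211 not listed); 34754 identifiers matched RefSeq and changed 0 symbols. A gene was read by its brightest kept probe set, with preference for specific ones. Limma 3.58.1 in R 4.3.3 fitted 1 mean per group over all arrays (10 residual degrees of freedom, intensity trend, two-sided tests, Benjamini-Hochberg). Confidence intervals were made from the SE of limma and a t distribution with the 10 residual degrees of freedom, not taken from limma itself. The number of arrays limited the precision. The procedure was tested on simulated data.

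The members, lists, comparisons and control sets were chosen with earlier results of these data known. Named genes were the members, up to 4 called genes per pathway list, the genes most correlated with each member (5 for Cxcl14, 3 for others) and Dlx genes as a check of the labels. As alternatives, the scaling, the pseudocount and the filter were changed; the compared groups were fitted alone, without the trend, with a replicate block, with each array left out and with the other WT maxillary set. Residuals of same-numbered arrays correlated between -0.096 and 0.085 over 30 pairs, and the samples were treated as unpaired.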

Additional observations from a re-analysis of the deposited data

How the results depend on the processing

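In the comparisons of the WT branches and of the mutant mandibular branch with set 1, no adjusted p of the 7 probe sets crossed the threshold under another scaling, pseudocount, filter, variance model or set of arrays, or with any array left out. The exception is Cxcl12 1439084_at, which the stricter filter removed, so 6 probe sets were tested there. Calls and directions did change with the other WT maxillary set, from the other array set. For the WT mandibular branch, Cxcl12 (1417574_at) then stood at 0.13 and Cxcr4 at 0.60. For the mutant mandibular branch, Cxcl14 then stood at 0.49 (1418457_at) and 0.60 (1418456_a_at), Cxcl12 at 0.50 and 0.36, Cxcr4 at 0.79 and Ackr3 at -0.37. The number of probe sets called with the other set was 3310 for the KO group, 3318 for the WT branches and 3536 for the mutant against the maxillary branch, against 289, 835 and 188. The cause was not tested. The dim Cxcl12 probe set 1439084_at turned its sign between the WT branches, to -0.012 without further normalization, -0.068 with a pseudocount of 8 and -0.033 with the other set, and ran from -0.27 to 0.19 with 1 array left out. The Cxcl14 difference on 1418457_at was -0.61 in the Dlx5/6 mutant with the larger pseudocount tried, and in the KO group it was -1.49 with a pseudocount of 8 and -0.54 with the larger one, as a larger pseudocount shrinks differences of dim probe sets. With 1 array left out it lay between -1.28 (without KO replicate 1) and -0.92 in the KO group. Without the intensity trend the calls were 452, against 841, in the Dlx5/6 mutant, 172 in the KO group and 125 for the mutant against set 1. With 1 array left out they were 502 to 654 in the Dlx5/6 mutant (502 without mutant replicate 2 and 520 without replicate 3), 176 to 221 in the KO group (189 without KO replicate 2, 176 and 181 without set 2 replicates 1 and 3), and 121 to 147 for the mutant against set 1 (121 without mutant replicate 2). Shifting arrays to a common median moved the share of calls that were higher to 32.7%, against 50.9%, in the KO group, to 56.5%, against 42.6%, between the WT branches and to 45.5%, against 34.0%, for the mutant against set 1. With the replicate number as a block, 779, 260, 787 and 177 probe sets were called in the Dlx5/6 mutant, the KO group, the WT branches and the mutant against set 1; the block changed no call of the 7 probe sets between the WT branches or between the mutant and set 1. Levels near the array median, as for Cxcr4 and for Cxcl14 in KO arrays, limit what can be read from small differences.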
